A study of Mus musculus with 12 samples.

Results

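The genes described here code for the scaffold proteins of the postsynaptic density and for the adhesion molecules that span the synaptic cleft. They were chosen by symbol, from what their proteins are known to do, with earlier results of these data known, and comprise 47 of the 55901 genes in the deposited table. Of these, 46 had a mean of at least 0.5 FPKM (fragments per length of exon and per amount of mapped reads) over the libraries and were tested with 15016 genes in all. The remaining member, Nrxn2, which codes for a neurexin, was listed at 0 to 0.0219 FPKM on 0 to 5 reads per library and was not tested. Whether this reflects its level in the cells or the counting of its reads was not tested.

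At an excitatory synapse, glutamate receptors are held opposite the release site by layered scaffolds. Dlg proteins (PSD-95 and its relatives) bind receptors at the membrane, SAPAP proteins (Dlgap genes) link Dlg proteins to Shank proteins, and Shank proteins bind Homer proteins and the actin cytoskeleton deeper in the spine. Across the cleft, presynaptic neurexins and LAR-type receptor phosphatases bind postsynaptic neuroligins, LRRTM and SLITRK proteins, while latrophilins bind FLRT proteins and SynCAM proteins bind each other. At inhibitory synapses gephyrin takes the place of the Dlg and Shank layers, and neuroligin 2 is the neuroligin found there.

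Cortical neurons of newborn C57BL/6J mice were grown with arabinosylcytosine to limit glia and sequenced as poly(A) RNA in 3 groups of 4 libraries. Control cultures were not injured, Trauma cultures were scratched, and Trauma+TGF-β1 cultures were scratched and kept with 10 ng/mL of the cytokine TGF-β1, both for 24 h. The methods of the study give a smaller number of sequenced samples than these labels. The labels did not say whether the 4 libraries of a group came from separate cultures, so p-values measure the spread between these libraries, which may be technical. In such bulk RNA, fewer synapse-bearing cells and less RNA per cell cannot be told apart, and isoforms of a gene (short and long Homer1, for example) are summed.

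The libraries held 15052486 to 17381671 reads on genes. Control 1 stood apart from the other 3 Controls, from which its counts differed by a chi-square per degree of freedom of 8.01 to 12.2, against 4.28 to 5.20 among those 3. Markers of neurons summed to 1433 to 1491 FPKM in Control, 1303 to 1377 with Trauma and 1238 to 1279 with Trauma+TGF-β1, with 2 of 12 higher and 2 lower in Trauma than in Control and 3 higher and 2 lower in Trauma+TGF-β1 than in Trauma. Astrocyte markers summed to 211 to 239, 269 to 332 and 285 to 306 FPKM in the same order, with 7 of 9 higher and 0 lower in Trauma than in Control and 1 higher and 3 lower in Trauma+TGF-β1 than in Trauma. Microglia markers summed to 20.9 to 24.8, 31.3 to 40.2 and 25.5 to 29.6 FPKM, with 3 of 5 tested higher in Trauma than in Control and 1 lower in Trauma+TGF-β1 than in Trauma. Oligodendrocyte lineage markers summed to 46.7 to 50.0, 58.7 to 65.8 and 58.1 to 64.6 (2 of 6 tested higher in Trauma, 0 changed from there with TGF-β1), and endothelial and fibroblast markers to 2.13 to 2.72, 2.59 to 3.95 and 3.34 to 3.89 (0 of 2 tested passed). A mean of at least 0.5 FPKM was reached by 5 of 10 microglia, 6 of 9 oligodendrocyte lineage and 2 of 8 endothelial and fibroblast markers. Of those that did not reach it, P2ry12, Tmem119, Pdgfra and Cldn5 stayed below 0.5 FPKM in each library. Of those that did, Cx3cr1 had group means of 1.33 to 1.68 FPKM and Olig1 of 24.5 to 34.0. Of the 6 tested oligodendrocyte lineage markers, 5 were higher in Trauma than in Control, passing or not. Olig2 went the other way, with means of 7.83, 7.13 and 6.87 FPKM in Control, Trauma and Trauma+TGF-β1. Mog had 4.04, 4.07 and 4.01 FPKM, and neither Olig2 nor Mog passed in a comparison. The part of these markers in the results below was not tested.

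The members changed little in size. Of the 46 tested, 3 passed the test in Trauma against Control (2 up, 1 down), 8 in Trauma+TGF-β1 against Trauma (2 up, 6 down) and 11 in Trauma+TGF-β1 against Control (3 up, 8 down), each by limma at an adjusted p of at most 0.05. Among all tested genes 5.82% passed in Trauma against Control (3.50% up, 2.32% down), 12.3% in Trauma+TGF-β1 against Trauma (4.64% up, 7.63% down) and 16.3% in Trauma+TGF-β1 against Control (6.85% up, 9.46% down). The members' shares were 6.5%, 17.4% and 23.9%. The median log2 fold change of the members was -0.035, 0.013 and -0.024 in these comparisons, beside -0.0025, 0.0052 and 0.0031 over all tested genes. The median size of a change, up or down, was 0.07, 0.11 and 0.12 for members and 0.11, 0.14 and 0.15 for all tested genes, and 0 members moved by more than 0.5 on the log2 scale. The comparisons share libraries, so a member that passed in both comparisons with Trauma+TGF-β1 was measured in part on the same samples.

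**Figure D1:**
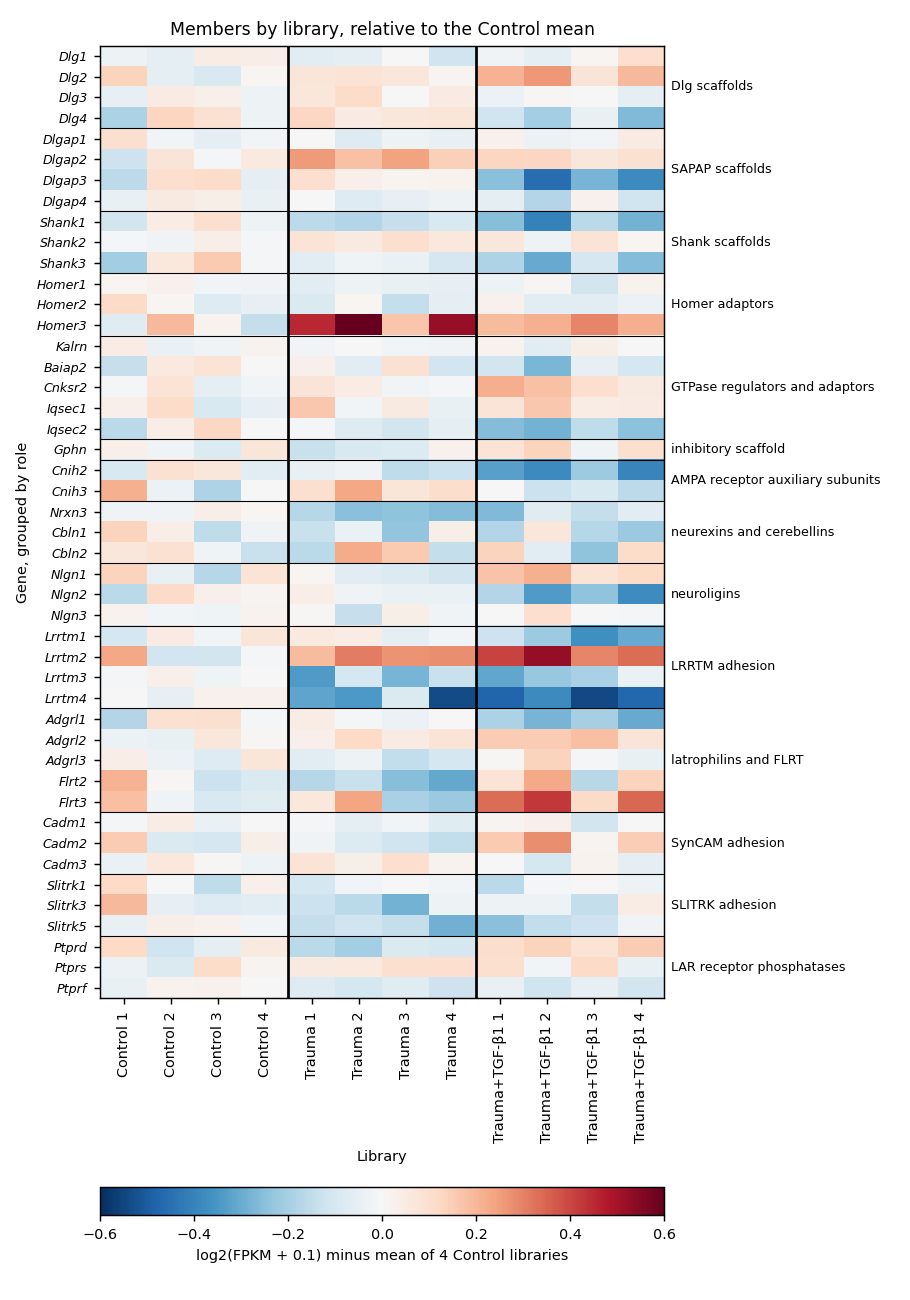
Heat map of the 46 tested members (vertical axis, grouped by role) in the 12 libraries (horizontal axis), coloured by log2(FPKM + 0.1) minus the mean of the 4 Control libraries. Dlgap3, Nlgn2, Cnih2 and Lrrtm4 are blue in the 4 Trauma+TGF-β1 libraries and Lrrtm2 is red, while Control 1 is blue in Dlg4, Shank3 and Adgrl1 against the other Controls.

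Dlg4, which codes for PSD-95, the most studied scaffold of the excitatory synapse, was lower with TGF-β1 than after trauma alone. It stood at 41.9, 52.4, 51.0 and 46.8 FPKM in Control 1 to 4, at 52.1, 49.5, 50.1 and 50.2 in Trauma 1 to 4, and at 44.1, 41.5, 46.4 and 39.7 in Trauma+TGF-β1 1 to 4. No Trauma+TGF-β1 library reached a Trauma library, whereas Control 1 lay among the Trauma+TGF-β1 libraries. Dlg4 fell by 0.24 on the log2 scale in Trauma+TGF-β1 against Trauma (SE 0.067, limma adjusted p = 0.0406). The call was lost in 8 of the 12 fits that left out a library (adjusted p up to 0.108). Dlg2, which codes for PSD-93, rose by 0.18 in Trauma+TGF-β1 against Control (limma adjusted p = 0.0307), from 32.0 ± 2.26 to 36.4 ± 1.91 FPKM (SD, n = 4), and Control 1 at 35.1 lay within the treated range of 33.8 to 38.3. This call, too, was lost in 6 of the 12 fits (adjusted p up to 0.0937). Dlg1 (SAP97) and Dlg3 (SAP102) passed in 0 of the 3 comparisons, with group means of 6.93 to 7.28 and 34.6 to 36.5 FPKM.

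Of the SAPAP genes, which tie Dlg proteins to Shank proteins, Dlgap3 showed the largest decrease of any member with TGF-β1 against trauma alone. This gene (ENSMUSG00000042388, chromosome 4, 127169204 to 127237022, plus strand of GRCm38) lay at 43.0, 51.4, 51.8 and 46.2 FPKM in Control, at 51.4, 49.0, 48.5 and 48.7 with Trauma and at 40.3, 34.9, 39.6 and 36.7 with Trauma+TGF-β1. Every Trauma+TGF-β1 library was below every library of the other two groups. The log2 fold change was -0.38 against Trauma (SE 0.0631, limma adjusted p = 0.0065) and -0.34 against Control (adjusted p = 0.00461), a decrease to 37.9 ± 2.50 from 49.4 ± 1.36 and 48.1 ± 4.25 FPKM (SD, n = 4). Neither call passed after the correction for GC content described below (-0.11 and -0.08, limma adjusted p = 0.106 and 0.146). Of all 22 calls of members, 8 did. Dlgap2 rose by 0.20 in Trauma against Control (limma adjusted p = 0.0378). Its values were 6.94 to 8.01 FPKM in Control, 8.40 to 9.07 with Trauma and 7.95 to 8.31 with Trauma+TGF-β1, so that the Trauma libraries lay above both other groups. This call was lost in 11 of the 12 fits that left out a library (adjusted p up to 0.103). Dlgap1 and Dlgap4 passed in 0 comparisons.

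Shank1, the scaffold of the deeper layer with the highest level here, was lower in Trauma+TGF-β1 than in Control. It measured 52.4, 58.3, 60.5 and 55.4 FPKM in Control, 50.7, 50.1, 51.4 and 53.0 with Trauma and 47.4, 42.7, 50.6 and 46.4 with Trauma+TGF-β1. The Trauma libraries lay between the other groups in mean (51.3 ± 1.29 FPKM, SD, n = 4) and overlapped both ranges. Its log2 fold change against Control was -0.28 (SE 0.0547, limma adjusted p = 0.0065), and no difference from Trauma passed in either direction. Shank3 had 30.5 to 39.4 FPKM in Control, 32.9 to 34.7 with Trauma and 28.6 to 32.9 with Trauma+TGF-β1 and did not pass (limma adjusted p = 0.0548 against Control), with Control 1 the lowest Control at 30.5. Shank2, at group means of 37.5 to 39.5 FPKM, did not pass.

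Among the Homer genes, whose proteins link Shank to metabotropic glutamate receptors, Homer3 was the only one to pass, in Trauma against Control. It had the lowest level of the tested members, at 1.56, 1.89, 1.67 and 1.48 FPKM in Control, 2.29, 2.57, 1.86 and 2.40 with Trauma and 1.89, 1.92, 2.03 and 1.92 with Trauma+TGF-β1, on 79 to 155 reads per library. Trauma 3 lay within the Control range, so these groups overlapped. The increase in Trauma was 0.44 on the log2 scale (SE 0.110, limma adjusted p = 0.0373) and was lost in 10 of the 12 fits that left out a library (adjusted p up to 0.110). Of its exon bases, 25.4% overlap those of Ddx49 on the opposite strand (group means of 7.27 to 7.92 FPKM), and the counting was not stated to use strand. Homer1, whose short form is an activity-induced transcript, ranged from 12.9 to 14.2 FPKM over the 12 libraries and passed in 0 comparisons. In the same Trauma libraries 7 of 11 tested activity-regulated genes, a list that includes Homer1, passed upward and 0 downward, with a median log2 fold change of 1.3. Over all tested genes 3.50% passed upward and 2.32% downward. Of the activity-regulated genes, Fos, an immediate early transcription factor, stood at 1.37 ± 0.261 FPKM in Control and 14.4 ± 9.90 in Trauma. Arc, which acts in receptor endocytosis, stood at 0.841 ± 0.249 and 3.48 ± 2.39 (SD, n = 4). The Arc call (limma adjusted p = 0.0473) held in 2 of the 12 fits that left out a library (adjusted p up to 0.134) and under 9 of 14 processing choices.

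The regulators and adaptors of small GTPases in the spine moved in 1 case. Iqsec2, an exchange factor for Arf GTPases, had 26.8 to 32.7 FPKM in Control, 27.8 to 29.7 with Trauma and 24.7 to 27.0 with Trauma+TGF-β1. It was lower by 0.23 on the log2 scale in Trauma+TGF-β1 than in Control (SE 0.055, limma adjusted p = 0.0142), although Control 1 at 26.8 fell within the treated range. Kalrn (kalirin, an exchange factor for Rac), Baiap2 (IRSp53, an actin adaptor), Cnksr2 and Iqsec1 passed in 0 comparisons, and Kalrn had group means between 14.8 and 15.0 FPKM. Gphn, which codes for gephyrin at inhibitory synapses, had 20.5 ± 0.945, 19.5 ± 0.946 and 21.6 ± 0.969 FPKM in Control, Trauma and Trauma+TGF-β1 (SD, n = 4). Its largest log2 fold change, 0.14 in Trauma+TGF-β1 against Trauma, did not pass (limma adjusted p = 0.075).

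Cnih2, a cornichon that accompanies AMPA receptors and slows their closing, had the highest FPKM of all members. The libraries gave 304, 346, 339.8 and 309 FPKM in Control, 314, 319, 291 and 296 with Trauma and 259, 248, 279 and 246 with Trauma+TGF-β1. The 4 treated libraries were below the 8 others. The log2 fold change was -0.24 against Trauma (SE 0.0549, limma adjusted p = 0.0181) and -0.33 against Control (adjusted p = 0.00262), and Trauma against Control did not pass. The call against Trauma was lost without Trauma 2, Trauma+TGF-β1 2 or Trauma+TGF-β1 4 (adjusted p up to 0.0567). Its relative Cnih3 did not pass, at group means of 17.6 to 20.6 FPKM.

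On the presynaptic side of the cleft, Nrxn3, a neurexin, was lower after trauma. This gene (ENSMUSG00000066392, chromosome 12, 88722876 to 90334935, plus strand) measured 12.3, 12.3, 12.8 and 12.6 FPKM in Control, 11.1, 10.5, 10.6 and 10.4 with Trauma and 10.4, 11.9, 11.3 and 12.0 with Trauma+TGF-β1. The Control libraries spanned a narrow range and lay above each library of both scratched groups. The decrease in Trauma was 0.23 on the log2 scale (fold change of 0.852; SE 0.0479, limma adjusted p = 0.0157), and it passed under each of 14 other processing choices and in 11 of 12 fits that left out a library (adjusted p = 0.0529 without Trauma 4). Its difference from Control in Trauma+TGF-β1 did not pass (adjusted p = 0.0752). The cerebellins Cbln1 and Cbln2, secreted bridges from neurexins to postsynaptic receptors, passed in 0 comparisons, at group means of 5.87 to 6.41 and 3.51 to 3.60 FPKM.

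One of the windows around a start of Nrxn3 in RefSeq holds a match to TGANTCA, searched on both strands. That window runs from 250 bases before to 50 after the start (GRCm38.p6, chr12:88953140-88953439, plus strand). TGANTCA is the AP-1 motif with any base allowed in the middle, and the middle base here is T. Nrxn3 was looked at because it is the member that passed as lower in Trauma and Fos, an AP-1 gene, was higher there. Of its windows, the one shown is the one with a match, and those from 88794254 and 89812233 hold 0. The window shown lies inside the gene, which begins at 88722876. Whether AP-1 has a part in the level of Nrxn3 was not tested. The capitals mark the match.
Nrxn3: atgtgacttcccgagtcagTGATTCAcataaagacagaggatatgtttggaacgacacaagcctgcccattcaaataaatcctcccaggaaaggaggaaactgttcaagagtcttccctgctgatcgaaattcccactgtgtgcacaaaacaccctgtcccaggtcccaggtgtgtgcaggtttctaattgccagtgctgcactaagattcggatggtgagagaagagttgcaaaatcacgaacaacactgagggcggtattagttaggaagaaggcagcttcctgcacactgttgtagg
Such a match stood in 2 of the 37 members found in the promoter table, against 7.8% of the 32851 windows of all genes (3.4% of the 58 member windows). The other member with a match, Cadm3, passed in 0 comparisons. The cyclic AMP element TGACGTCA stood in 1.7% of member windows and 1.8% of all, and the SMAD palindrome GTCTAGAC in 0 of 58 and 0.2% of all. These matches describe letters, not binding.

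Neuroligin 2, the inhibitory-synapse neuroligin coded by Nlgn2, was lower with TGF-β1 than in both other groups. Nlgn2 (ENSMUSG00000051790, chromosome 11, 69823122 to 69837784, minus strand) stood at 75.9, 91.9, 86.8 and 85.8 FPKM in Control, 87.3, 83.7, 82.7 and 82.6 with Trauma and 75.0, 67.2, 71.8 and 65.3 with Trauma+TGF-β1. The Trauma+TGF-β1 libraries lay below all others, with the first of them close to Control 1. The log2 fold change was -0.27 against Trauma (SE 0.0585, limma adjusted p = 0.0164) and -0.28 against Control (adjusted p = 0.00788), and the first was lost without Trauma+TGF-β1 2 (adjusted p = 0.0521). Nlgn1, the neuroligin of excitatory synapses, had 5.01 to 6.23 FPKM in Control, 5.25 to 5.70 with Trauma and 6.00 to 6.58 with Trauma+TGF-β1, and its higher values with TGF-β1 did not pass (adjusted p = 0.0647 against Trauma). Nlgn3 stayed between 7.06 and 8.35 FPKM and passed in 0 comparisons, and 41.2% of its exon bases overlap those of Gm21986 on the same strand.

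The LRRTM genes, whose proteins are excitatory-synapse partners of neurexins, split by direction. Lrrtm1 (ENSMUSG00000060780, chromosome 6, 77242689 to 77257791, plus strand) had 43.0, 47.9, 45.8 and 48.7 FPKM in Control, 48.2, 47.8, 44.5 and 45.8 with Trauma and 42.5, 39.8, 35.9 and 37.6 with Trauma+TGF-β1. Its treated libraries lay below the rest, and the log2 fold change was -0.26 against Trauma (SE 0.0557, limma adjusted p = 0.0153) and -0.25 against Control (adjusted p = 0.0111). Lrrtm4 (ENSMUSG00000052581, chromosome 6, 80018877 to 80810143, plus strand) had 3.46, 3.35, 3.54 and 3.54 FPKM in Control, 2.77, 2.71, 3.27 and 2.36 with Trauma and 2.47, 2.64, 2.35 and 2.48 with Trauma+TGF-β1. Each scratched library was below each Control library. Its log2 fold change in Trauma+TGF-β1 against Control, -0.47 (SE 0.0882, limma adjusted p = 0.00512), was the largest of the members in any comparison. In Trauma against Control Lrrtm4 missed the threshold (adjusted p = 0.0543).

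Lrrtm2 went the other way and was higher in Trauma+TGF-β1 than in Control. This gene (ENSMUSG00000071862, chromosome 18, 35209003 to 35215024, minus strand) gave 5.74, 4.50, 4.51 and 4.84 FPKM in Control, 5.58, 6.05, 5.90 and 5.94 with Trauma and 6.49, 7.07, 5.99 and 6.18 with Trauma+TGF-β1. Control 1 was the highest Control, and no Control library reached a Trauma+TGF-β1 library. The increase was 0.39 on the log2 scale (fold change of 1.31; SE 0.0797, limma adjusted p = 0.00762), and 0.47 without Control 1 (adjusted p = 6.89e-04). Without Control 1 the increase in Trauma against Control also passed (0.34, adjusted p = 0.0123; 0.0827 with it). Lrrtm2 lies inside Ctnna1 on the opposite strand and shares 95 exon bases with it, and Ctnna1, which codes for an alpha-catenin, had group means of 5.00, 7.37 and 7.67 FPKM, so that its reads from this stretch cannot be told apart from those of Lrrtm2. Lrrtm3 had 7.05 to 7.32 FPKM in Control, 5.64 to 6.65 with Trauma and 5.76 to 6.96 with Trauma+TGF-β1, all scratched libraries below all Controls, yet passed in 0 comparisons (adjusted p = 0.0916 and 0.0736 against Control). The increase of Lrrtm2 and the decreases of Lrrtm1 and Lrrtm4 in Trauma+TGF-β1 against Control were the 3 calls that passed under all 14 processing choices and all 12 fits that left out a library.

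The latrophilins are adhesion receptors that bind FLRT proteins and teneurins. Adgrl1 (latrophilin 1) had 81.7, 98.3, 98.7 and 91.6 FPKM in Control, 95.2, 92.0, 90.0 and 92.1 with Trauma and 81.0, 76.2, 80.3 and 74.8 with Trauma+TGF-β1. The Trauma+TGF-β1 libraries lay below all others, but Control 1 exceeded the highest of them by less than 1 FPKM. Its log2 fold change was -0.24 against Trauma (SE 0.0555, limma adjusted p = 0.0190) and also -0.24 against Control (adjusted p = 0.0132). The first was lost without Trauma 1, Trauma 2, Trauma+TGF-β1 2 or Trauma+TGF-β1 4 (adjusted p up to 0.0570). Adgrl2 rose by 0.14 in Trauma+TGF-β1 against Control (limma adjusted p = 0.0494), from 7.00 ± 0.256 to 7.73 ± 0.234 FPKM (SD, n = 4). That call was lost under 9 of 14 processing choices and in 11 of the 12 fits that left out a library (adjusted p up to 0.123). Flrt3 had the largest increase of the members in Trauma+TGF-β1 against Trauma, 0.34 on the log2 scale (SE 0.107), but at 4.98 to 6.88 and 6.32 to 7.86 FPKM these groups overlapped and it did not pass (adjusted p = 0.0614). Flrt2 and Adgrl3 passed in 0 comparisons.

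Cadm2, a SynCAM that joins axons and dendrites by binding its own family, was higher with TGF-β1 than after trauma alone. It stood at 66.6, 56.4, 55.9 and 61.5 FPKM in Control, 59.1, 56.7, 55.2 and 54.1 with Trauma and 67.0, 72.8, 60.7 and 66.5 with Trauma+TGF-β1. The treated libraries lay above all Trauma libraries and overlapped the Control range. The increase was 0.24 on the log2 scale (SE 0.0642, limma adjusted p = 0.0309) and was lost in 6 of the 12 fits that left out a library (adjusted p up to 0.0932). Cadm1, at 16.2 to 18.0 FPKM over all libraries, and Cadm3, at 58.2 to 67.1, passed in 0 comparisons.

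Ptprd, a LAR-type receptor phosphatase of the presynaptic membrane that binds SLITRK proteins and other partners, also rose with TGF-β1 against trauma alone. Ptprd (ENSMUSG00000028399, chromosome 4, 75941238 to 78211961, minus strand) had 17.9, 15.2, 15.9 and 17.1 FPKM in Control, 14.7, 14.3, 15.5 and 15.4 with Trauma and 17.7, 18.1, 17.5 and 18.3 with Trauma+TGF-β1. All treated libraries lay above all Trauma libraries, and Control 1 lay among them. The log2 fold change was 0.26 (fold change of 1.20; SE 0.0516, limma adjusted p = 0.0128) and passed in each of the 12 fits that left out a library, but not with a correction for gene length (0.10, adjusted p = 0.0826). Ptprs, at 38.1 to 43.9 FPKM over all libraries, and Ptprf, at 34.3 to 38.1, passed in 0 comparisons. Of the SLITRK genes, which code for postsynaptic partners of these phosphatases, Slitrk5 had the largest change, -0.17 in Trauma against Control (18.5 to 19.5 against 15.6 to 17.5 FPKM), which did not pass (limma adjusted p = 0.078). Slitrk1 and Slitrk3 passed in 0 comparisons.

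**Figure D2:**
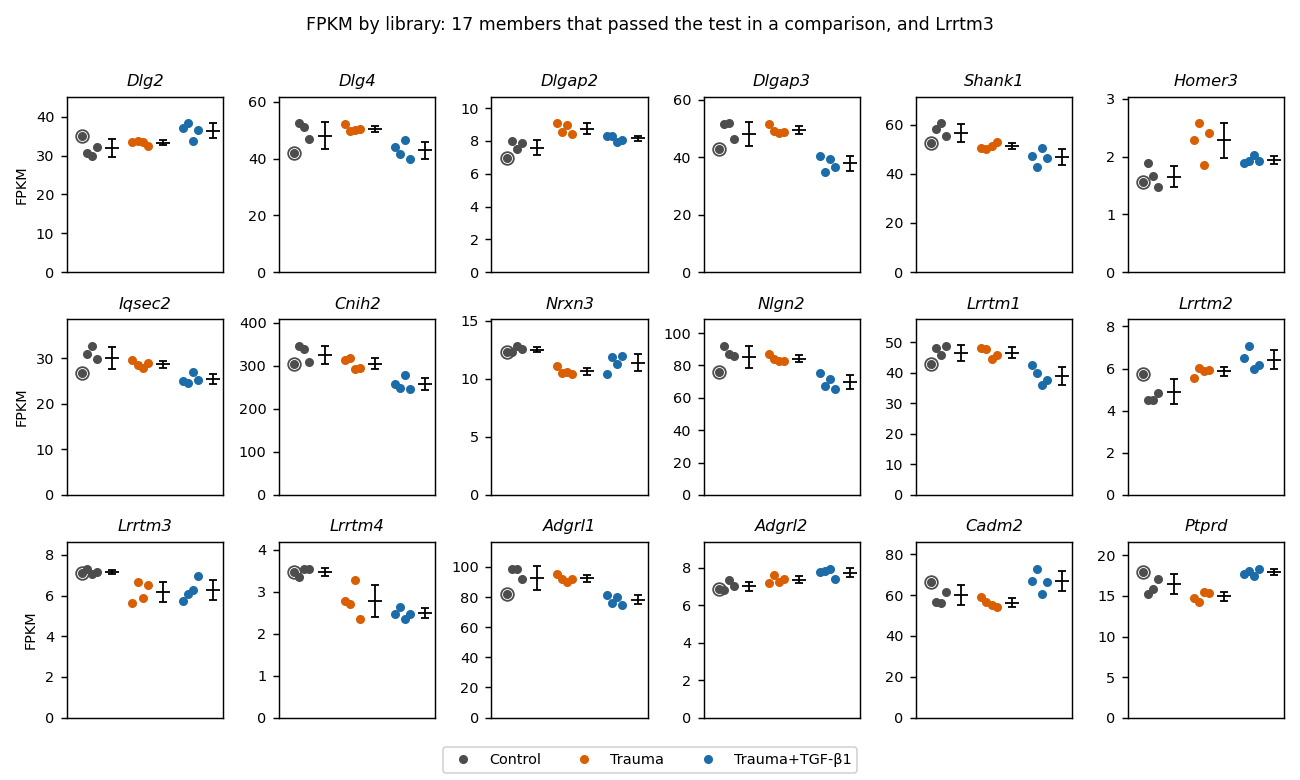
FPKM (vertical axes, from 0) in each library for the 17 members that passed in at least 1 comparison and for Lrrtm3, with Control in grey, Trauma in orange and Trauma+TGF-β1 in blue, and black bars for mean ± SD (n = 4). The ringed grey point is Control 1, which lies near the blue points for Dlg4, Nlgn2, Adgrl1, Cadm2 and Ptprd.

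In all, 17 members passed in at least 1 comparison, 12 of them in 1 and 5 in 2, and 29 tested members passed in none. The libraries of the compared groups did not overlap for 9 members in Trauma against Control, 13 in Trauma+TGF-β1 against Trauma and 11 in Trauma+TGF-β1 against Control. Over all tested genes 12.8%, 22.3% and 18.0% were so separated.

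Among the 46 tested members, the direction of change with TGF-β1 went with the base composition of the transcript. The like values over all tested genes were not computed, so this is not shown to be particular to these members. GC content of the longest annotated transcript ranged from 36.9% (Homer1 and Cadm2) to 63.9% (Dlgap3) over the 46 members. Of the 14 members at or above 55% (Shank2, at 54.97%, was just below), 13 were lower and 1 was higher in Trauma+TGF-β1 than in Trauma, with a median log2 fold change of -0.145. Of the 32 below 55%, 9 were lower and 23 higher, with a median of 0.043. Spearman's rho between log2 fold change and GC content was -0.732 across the 46 members, which share libraries and are not replicates. In Trauma+TGF-β1 against Control it was -0.505, and in Trauma against Control 0.211. The same order appeared within the Control group, where the difference of Control 1 from the mean of Control 2 to 4 had a rho of -0.673 with GC content. Control 1 was the lowest Control for 10 of the 14 GC-rich members and the highest for 1, but the lowest for 6 and the highest for 13 of the other 32.

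After a loess correction of every library for GC content, fitted over all genes, the rho in Trauma+TGF-β1 against Trauma became 0.099 and 4 members passed. Dlg4 stayed lower (log2 fold change of -0.28, limma adjusted p = 0.0460) and Ptprd higher (0.17, adjusted p = 0.0283), Ptprf rose (0.17, adjusted p = 0.0233) and Lrrtm4 fell (-0.32, adjusted p = 0.0469). Dlgap3, Lrrtm1, Nlgn2, Adgrl1, Cnih2 and Cadm2 no longer passed (adjusted p = 0.106 to 0.968), and for Cnih2 the log2 fold change went from -0.24 to -0.005. Against Control, the corrected values of Lrrtm2 (0.24), Lrrtm4 (-0.62), Lrrtm1 (-0.21) and Adgrl1 (-0.11) still passed, those of Dlgap3, Nlgn2, Cnih2, Shank1, Iqsec2, Dlg2 and Adgrl2 did not. Another 6 that had not passed did so with the correction, with Homer1 (-0.19), Nrxn3 (-0.20), Lrrtm3 (-0.29) and Slitrk5 (-0.17) lower and Homer3 (0.39) and Ptprs (0.20) higher. In Trauma against Control, 8 members passed after the correction. Nrxn3 (-0.26), Slitrk5 (-0.21), Shank1 (-0.17), Ptprf (-0.14), Ptprd (-0.15) and Lrrtm4 (-0.30) were lower and Homer3 (0.41) and Lrrtm2 (0.28) higher. The counts over all tested genes shifted with this correction too. In Trauma against Control, 1248 of 14699 genes passed with it and 874 of 15016 without it. The step from Trauma to Trauma+TGF-β1 had 818 with it and 1842 without it. Between Control and Trauma+TGF-β1 there were 2012 with it and 2449 without it. Whether the members shifted differently from all genes was not tested. In all, 8 of the 22 calls remained with this correction, 17 with the like correction for gene length and 19 without Control 1. The 5 lost with the length correction were Ptprd, Cadm2 (adjusted p = 0.0926) and Cnih2 (adjusted p = 0.0669) against Trauma and Dlg2 (adjusted p = 0.285) and Adgrl2 (adjusted p = 0.677) against Control. Whether the link to GC content arose in the cells or in library preparation was not tested.

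**Figure D3:**
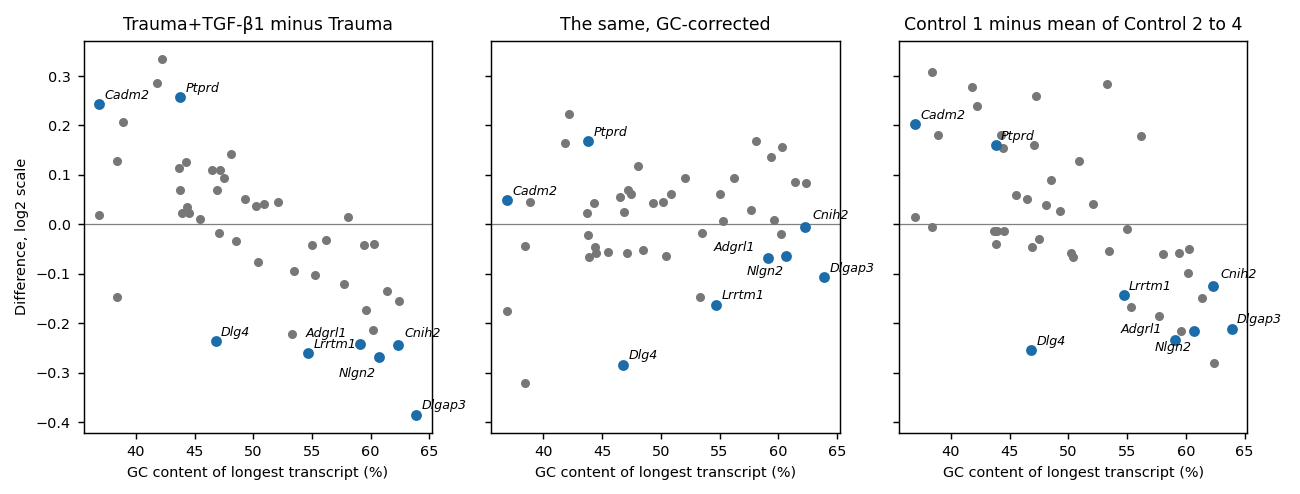
Difference on the log2 scale (vertical axis) against GC content in percent (horizontal axis) for the 46 tested members, each a point, in Trauma+TGF-β1 minus Trauma as measured (left) and after GC correction (middle), and in Control 1 minus the mean of the other 3 Controls (right), with the 8 members that passed in the first in blue. The points fall from left to right in the left and right panels (rho of -0.732 and -0.673) and not in the middle one (0.099).

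The promoter windows of 3 members lower and 1 higher in Trauma+TGF-β1 than in Trauma are shown to set their base composition beside that of the transcripts. Capitals mark matches to the Sp1 motif GGGCGG on either strand. The windows come from RefSeq (GRCm38.p6), which holds none for Ptprd: Dlgap3 at chr4:127172630-127172929 (plus strand), Nlgn2 at chr11:69837735-69838034 (minus strand), Lrrtm1 at chr6:77242227-77242526 (plus strand) and Cadm2 at chr16:67620859-67621158 (minus strand).
Dlgap3: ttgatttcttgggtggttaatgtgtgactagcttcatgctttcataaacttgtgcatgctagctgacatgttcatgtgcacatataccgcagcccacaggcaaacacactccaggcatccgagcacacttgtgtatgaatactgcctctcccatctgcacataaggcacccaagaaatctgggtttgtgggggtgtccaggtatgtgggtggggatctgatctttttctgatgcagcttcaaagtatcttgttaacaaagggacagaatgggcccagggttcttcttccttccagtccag
Nlgn2: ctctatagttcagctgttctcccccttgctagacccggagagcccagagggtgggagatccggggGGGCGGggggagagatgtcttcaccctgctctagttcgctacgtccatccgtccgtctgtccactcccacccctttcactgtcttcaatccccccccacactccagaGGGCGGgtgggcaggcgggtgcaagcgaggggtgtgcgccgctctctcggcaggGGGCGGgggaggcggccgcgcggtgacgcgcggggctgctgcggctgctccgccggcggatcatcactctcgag
Lrrtm1: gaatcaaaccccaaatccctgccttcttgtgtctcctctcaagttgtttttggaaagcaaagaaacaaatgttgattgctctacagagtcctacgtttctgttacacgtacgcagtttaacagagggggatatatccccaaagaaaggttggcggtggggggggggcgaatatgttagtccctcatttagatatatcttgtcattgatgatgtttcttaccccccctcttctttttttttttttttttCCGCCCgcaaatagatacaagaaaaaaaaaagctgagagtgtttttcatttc
Cadm2: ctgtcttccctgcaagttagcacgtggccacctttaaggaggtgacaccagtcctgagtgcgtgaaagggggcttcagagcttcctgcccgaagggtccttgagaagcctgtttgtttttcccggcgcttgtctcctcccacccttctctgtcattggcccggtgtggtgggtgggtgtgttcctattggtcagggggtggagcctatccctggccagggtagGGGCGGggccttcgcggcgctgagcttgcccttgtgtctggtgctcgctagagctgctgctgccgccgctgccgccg
The windows of Dlgap3 and Lrrtm1, whose transcripts are 63.9% and 54.7% GC, hold 47.7% and 40.7% GC, while that of Cadm2, whose transcript is 36.9% GC, holds 62.7%. Nlgn2 has 68.7% in the window and 3 matches, Lrrtm1 and Cadm2 have 1 match each, and Dlgap3 has 0. The Dlgap3 window lies inside the gene, which begins at 127169204, so it is not at the annotated 5' end. Cnih2, Adgrl1 and Dlg4, also lower in Trauma+TGF-β1 than in Trauma, have windows not shown here. Those of Cnih2 and Adgrl1 hold 3 and 2 matches, and those of Dlg4 hold 0 to 2. The motif stood in 48.3% of the 58 member windows and in 35.7% of all windows, and the median GC of windows was 59.7% and 52.7%.

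**Figure D4:**
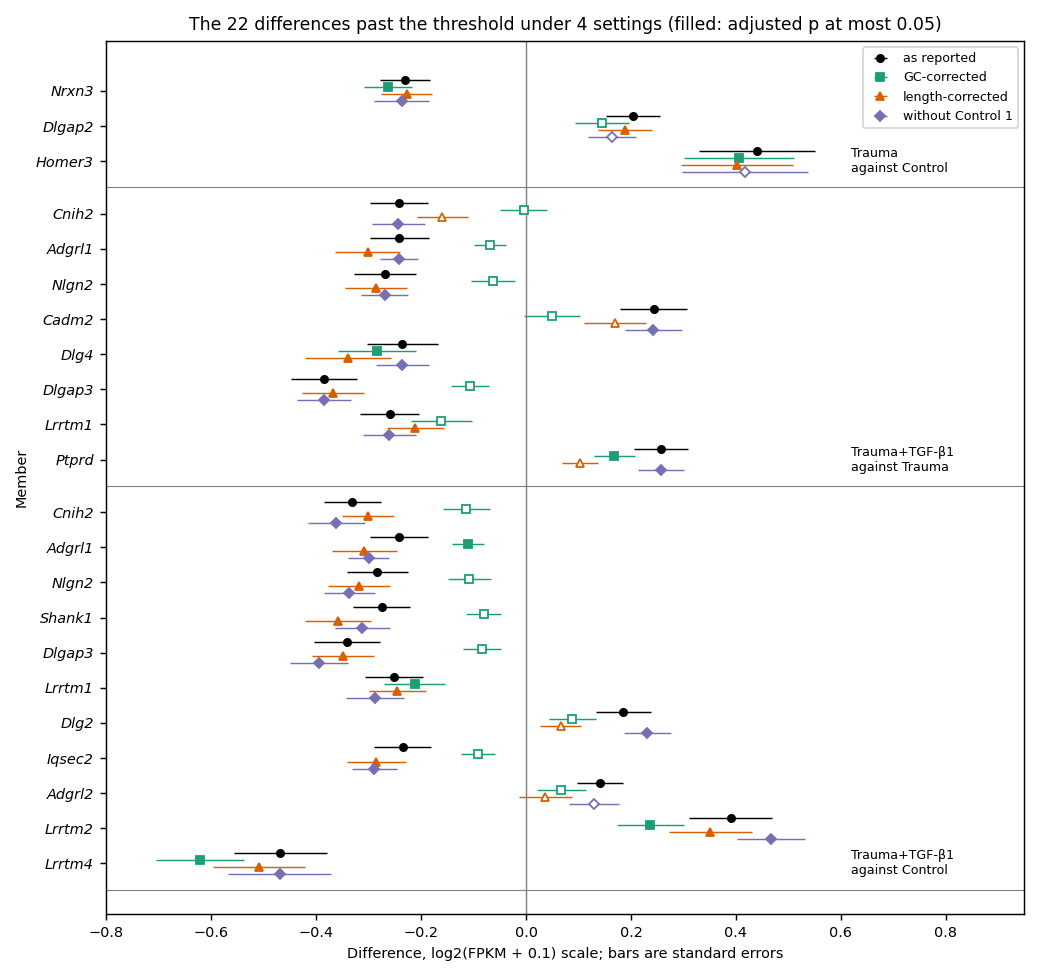
Log2 fold change with standard error (horizontal axis) for the 22 calls of members (vertical axis), in blocks by comparison, as reported (black circles), GC-corrected (green squares), length-corrected (orange triangles) and without Control 1 (purple diamonds), with filled symbols at an adjusted p of at most 0.05. Green squares stay filled for Nrxn3, Homer3, Dlg4 and Ptprd and, against Control, for Adgrl1, Lrrtm1, Lrrtm2 and Lrrtm4.

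Further genes of the same structures moved in both directions as well. Of 50 other postsynaptic density genes, 48 were tested, and 2 rose and 1 fell in Trauma against Control, 3 rose and 3 fell in Trauma+TGF-β1 against Trauma, and 4 rose and 9 fell against Control. Of 57 other synaptic adhesion genes, 53 were tested, with 4 up and 3 down, 4 up and 5 down, and 9 up and 10 down in the same order. Among all tested genes 5.82%, 12.3% and 16.3% passed in these comparisons (3.50%, 4.64% and 6.85% up, 2.32%, 7.63% and 9.46% down). Whether either list differed from all genes was not tested. Their medians in the 3 comparisons were -0.048, 0.039 and 0.02 for the first list and 0.019, -0.028 and -0.001 for the second.

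The secreted pentraxins Nptx1 and Nptx2, which cluster AMPA receptors from outside the cell, showed the largest increases of the adhesion list in Trauma. Nptx2 had 2.03 ± 0.340 FPKM in Control and 5.07 ± 0.170 in Trauma (log2 fold change of 1.29, limma adjusted p = 8.48e-05) and Nptx1 1.94 ± 0.226 and 4.10 ± 0.233 (1.05, adjusted p = 1.20e-04). Gpc4, a glypican that astrocytes release to promote synapses, rose by 0.33 in Trauma against Control (limma adjusted p = 0.0135) and by a further 0.29 in Trauma+TGF-β1 against Trauma (adjusted p = 0.0195), the second of which was lost without Trauma 2, Trauma+TGF-β1 2 or Trauma+TGF-β1 4 (adjusted p up to 0.0597). With TGF-β1, Lrfn4, a SALM that binds PSD-95, fell by 0.38 (adjusted p = 0.0174), Cadm4, a SynCAM, by 0.35 (adjusted p = 0.0137) and Agap2 by 0.33 (adjusted p = 0.0181) against Trauma. After the GC correction Cadm4 still passed (-0.16, adjusted p = 0.0302), while Lrfn4 (adjusted p = 0.617) and Agap2 (adjusted p = 0.154) did not. Leaving out Trauma+TGF-β1 2 also ended the call of Lrfn4, and leaving out that library, Trauma 2 or Trauma+TGF-β1 4 that of Agap2 (adjusted p up to 0.0554 for each). As a check of the treatment, 4 of 7 TGF-β response genes were tested, of which 2 rose and 0 fell in Trauma+TGF-β1 against Trauma. Ccn2, a secreted matrix protein gene, had 1.94 ± 0.211, 3.52 ± 0.0926 and 10.8 ± 0.224 FPKM in Control, Trauma and Trauma+TGF-β1 (SD, n = 4). Pmepa1 also rose, Skil did not pass (adjusted p = 0.312), and Smad7, an inhibitor of the pathway, had 2.99 ± 0.470, 2.94 ± 0.481 and 2.05 ± 0.380 FPKM, lower against Control (-0.53, limma adjusted p = 0.0370) and not past the threshold against Trauma (-0.50, adjusted p = 0.0538).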

How the data were processed

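Poly(A) RNA was sequenced as 12 libraries in 3 groups. The authors aligned reads (HISAT2 2.0.5 and mm10 in the submitters' processing notes), counted them per gene with featureCounts and deposited FPKM values. The deposited table also gives gene length and coordinates (other), which match GRCm38. The product of FPKM and gene length came in whole steps for 100% of genes in each library (tolerance of 0.05 read plus 0.0001 of the count), which gave the reads. That step times the median-of-ratios factor of those reads was 61.7187 in every library, so the deposited values were already scaled by such factors and not by mapped reads alone.

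The FPKM were rescaled with median-of-ratios factors of the tested genes (0.99906 to 1.01147), 0.1 was added and log2 taken. Genes with a mean of at least 0.5 FPKM were compared with limma 3.58.1 in R 4.3.3 (1 fit of the 12 libraries, eBayes with a trend, Benjamini-Hochberg adjustment over all tested genes). FPKM printed are after this scaling, and fold changes are on the log2(FPKM + 0.1) scale, which understates those of low genes. The procedure was checked on simulated data. GC content, known for 46 of 46 tested members and 14699 of 15016 genes, is that of the longest GENCODE M21 transcript.

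The 47 members, their roles and the further lists were chosen with earlier results of these data known. Full values are given for members past the threshold in a comparison, those with the highest and lowest level and the largest change of each role group, and of further lists for at most 3 genes per direction and comparison, and Fos, Arc, Ctnna1, Ddx49 and Gm21986 were named after their values were seen. The alternatives are named in the closing section. Lengths are those the authors used, and no correction was made for reads shared between overlapping genes. No pair of libraries of a group agreed within sampling noise.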

Additional observations from a re-analysis of the deposited data

Results flagged for a closer look

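In 5 of the 138 sets of 4 libraries examined (46 members in 3 groups), 1 library lay apart by a gap beyond Dixon's critical share of the set's range on the log2 scale. Chance gives about 1 in 20 such sets, more than were found. They were Trauma+TGF-β1 2 for Cbln1 (highest, 6.71 FPKM) and for Nlgn3 (highest, 8.35 FPKM), Trauma 1 for Slitrk1 (lowest, 12.5 FPKM), Trauma 4 for Slitrk5 (lowest, 15.6 FPKM) and Control 1 for Slitrk3 (highest, 17.6 FPKM). None of these 5 genes passed the limma test in a comparison as reported (limma adjusted p of at least 0.078).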

How the results depend on the processing

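The settings tried were pseudocounts of 0.01 and 1, omission of the filter or a filter at 1 FPKM, the deposited FPKM without rescaling, quantile normalization, fits on 2 groups alone, robust eBayes, the replicate number as a block, loess corrections (span 0.3) for gene length and for GC content with and without that block, voom on the recovered reads, and each library left out. None of the 22 calls changed direction, 4 passed under all 14 processing choices and 12 in all fits that left out a library. At this depth the lowest tested member, Homer3, rests on 79 to 155 reads.

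In Trauma against Control 3 of the 46 tested members passed as reported. Counted anew over all tested members, 1 passed with no filter, with 2 groups alone and with the replicate block, and 8 with the GC correction (with and without the block), of which 6 were not among the 3 in the fit without the block. Leaving out a library gave 0 to 3, and 0 by limma without Trauma 4 (11 at an unadjusted p under 0.05). Without Control 3 or 4, Trauma 1 or 2, or any Trauma+TGF-β1 library the count was 1. The counts over all tested genes moved as well, from 874 as reported to 575 with no filter and 525 with 2 groups alone. They were 781 with the replicate block, 1248 with the GC correction (1346 with the block) and 464 without Trauma 4. The median moved from -0.035 to -0.056 with the GC correction (with and without the block) and to -0.002 with voom.

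In Trauma+TGF-β1 against Trauma 8 passed as reported, and the new count was 9 with the replicate block, 5 with the length correction and block, 4 with the GC correction, 2 with that and the block, and 13 with voom (5 of them not among the 8). Leaving out a library gave 3 (without Trauma+TGF-β1 2) to 14 (without Control 1), with 5 without Trauma 2 and 4 without Trauma+TGF-β1 4. Over all tested genes 1842 passed as reported, 1526 with the replicate block, 876 with the length correction and block, and 2568 with voom. With the GC correction 818 did, and 740 with that and the block. Without Trauma+TGF-β1 2 the count was 649, without Trauma 2 781, without Trauma+TGF-β1 4 819 and without Control 1 2552. Quantile normalization split the calls 5 up and 3 down, against 2 and 6, and the length correction 0 and 8. Over all tested genes the splits were 1125 up and 927 down, against 696 and 1146, and 405 and 876 with the length correction. The median was 0.043 with quantile normalization and -0.07 with the length correction (with and without the block), and -0.004 without Trauma 1.

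In Trauma+TGF-β1 against Control 11 passed as reported, and the new count was 17 with voom (6 of them not among the 11), 12 with the replicate block and 9 to 16 with a library left out, the most without Control 1. Over all tested genes 2449 passed as reported, 2900 with voom and 2222 with the replicate block. With a library left out the count was 1426 (without Control 3) to 3425 (without Control 1). Quantile normalization split the calls 6 and 6, against 3 up and 8 down. Over all tested genes the split was 1134 up and 918 down, against 1029 and 1420. The median was 0.016 with quantile normalization, -0.093 with the length correction and -0.055 with the GC correction (each with and without the block), 0.005 with voom and -0.038 (without Control 4) to -0.006 (without Control 1) with a library left out. Outside the members, Nsmf, a postsynaptic density gene, had -0.13 in Trauma+TGF-β1 against Trauma and 0.043 with the GC correction (with and without the block). The cause of these changes was not tested.

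Libraries with the same replicate number did not deviate together (correlations of -0.009 to 0.076 over 12 pairs), and 1 of 12 libraries correlated best with its own number in both other groups, so the replicate block rests on a shared number alone.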
